A study of Mus musculus with 7 samples.

Results

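The genes of translation initiation and elongation factors were taken from the table of sorted muscle cells as every row whose symbol begins with Eif or Eef followed by a digit, leaving out the kinases of the Eif2ak group. This gave 53 of 23930 genes. Of these, 52 were detected and all of those had a mean of 10 RPM, the unit of the table, which puts libraries of different depth on the same total or more, while Eif2c5 was at 0 in all 7 libraries. None of the 53 genes was called different between normocapnia and hypercapnia. The 4 hypercapnia libraries lay close together for most of these genes, and the widest departures came from the normocapnia library NC3. It fell outside the range of the other 6 libraries for 36 genes (69.2%), the same 69.2% as among the rows at 10 RPM or more. Without NC3 the sign of the difference changed for 24 of the 52 detected genes. That count was not taken over all rows. The median difference over the rows at 1 RPM or more moved from 0.16 to -0.07 without NC3.

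Protein synthesis begins when a small ribosomal subunit, carrying initiator tRNA on the factor eIF2, is brought to the capped end of a messenger RNA by eIF4F and eIF3 and then moves along the leader to a start codon. The eIF4E subunit of eIF4F binds the cap, and the 4E-binding proteins hold eIF4E back until the kinase complex mTORC1 phosphorylates them. eEF1 then delivers each aminoacyl-tRNA, and eEF2 moves the ribosome along by a codon. In muscle stem cells, which rest in the uninjured tissue and enlarge and divide after damage, protein synthesis is held low during rest, in part by phosphorylation of eIF2.

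The libraries came from Pax7-GFP inducible reporter mice, in which tamoxifen, given to animals of both groups at 12 weeks of age, turns on GFP in cells that express the satellite cell factor Pax7, and their descendants stay green. Normocapnia animals (NC1 to NC3, 3 libraries) breathed room air and hypercapnia animals (HC1 to HC4, 4 libraries) air enriched in CO2 for 4 weeks, and GFP-positive cells were sorted from the hind leg muscles at 16 weeks. The methods describe a cardiotoxin injury days before collection, which the labels do not mention. The title of the deposited table carries a time of 40 h, which matches neither that interval nor anything in the labels, so the time and state at which the cells were taken are not settled here. The genotype labels number the strain from C57BL/6 in NC1 to C57BL/12 in HC4, rising by 1 from library to library, whereas the growth protocol speaks of littermates on a C57 background. Nothing in the labels ties each library to a separate animal, so p-values here measure only the spread between these libraries.

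Library totals ran from 14527445 to 23388710 reads, and the floor of 3 reads stood at 0.128 to 0.207 RPM. The sort did not leave satellite cells alone. Summed over 10 satellite cell markers, the level was lowest in NC3 (158 RPM) and highest in NC1 (3092 RPM), as was Pax7 itself (4.34 and 268 RPM). The sum in NC2 was 216 RPM, of which Des made up 125 RPM, against 35.9 RPM of Des in NC3. Myf5 (26.6 RPM), Chodl (67.4 RPM) and Calcr (1.1 RPM) were higher in NC3 than in NC2, HC1 and HC2, while the other markers of the list were lowest in NC3. The sum over 11 macrophage markers was 12270 RPM in NC1, 35010 RPM in NC3 and 20100 to 25010 RPM in the other 5 libraries, and Lyz2 alone made up 29110 RPM of the sum in NC3. Other markers of that list, C1qb (158 RPM), C1qc (0.069 RPM), Adgre1 (70.5 RPM) and Cd14 (431 RPM), were lowest in NC3. Cd68, Csf1r, Itgam, Mrc1 and Fcgr1 were, like Lyz2, lowest in NC1, and C1qa was at 0.452 RPM or less throughout. Adgre1 was higher in hypercapnia, at 392, 429, 151 and 184 RPM against 109, 149 and 70.5 RPM, with no overlap (log2 difference 1.31, SE 0.49, adjusted p = 0.915 by limma). NC3 also gave 16.6% of its reads to its 10 most abundant genes, against 8.36% to 12.1% in the other libraries. Xist was at 445 to 701 RPM in NC1, NC2, HC1 and HC2 and at 0.125 RPM or less in NC3, HC3 and HC4. In such bulk samples fewer cells of a type and less RNA per cell cannot be told apart. Xist was used as a covariate in an added fit, and the part of the other differences in the results below was not tested.

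Messenger RNAs of the translation machinery often begin with a C followed by a run of pyrimidines, the 5′ terminal oligopyrimidine motif, through which mTORC1 controls their translation. The first bases of 4 genes that the results turn on are therefore shown, each as 14 bases before and 16 bases from the annotated start (RefSeq, GRCm38.p6), with a run in capitals where there is one. A run was a C followed by at least 5 C or T that began within 10 bases of the start, on the gene's own strand.
Eif3f (chr7:108934401-108934430, plus strand): ctgttctaggCTCTCTCTCTTTCTCggcaa
Eef1a1 (chr9:78481709-78481738, minus strand): ctggctccgCCCTCTTCCCgagggtggggg
Eif4e (chr3:138527254-138527283, plus strand): cgccCCCCCTTCaggagcggttgtgcgatc
Eef2 (chr10:81176617-81176646, plus strand): ataaaaggccgggcgttgacgtcagcggtc
Eif3f, an eIF3 subunit, had a run of 15 bases across its start and Eef1a1, the general tRNA carrier, a run of 10 bases. For Eif4e the 8 capitals are the part of a pyrimidine stretch inside the 10-base window, and the stretch ends before 1 of 2 annotated starts without reaching it. Eef2 had none in this window. A promoter entry was found for 42 of the 53 genes and 11 of them, or 26.2%, had a run, against 21.9% of all 27025 genes with an entry. A C followed by at least 4 pyrimidines at the annotated start itself, closer to the motif as defined, was found in 2 of the 42, Eif3f and Eif2c5, or 4.76%, against 3.01% of all genes with an entry. Of these Eif2c5 was not detected and belongs to none of the factor roles used below, and Eif2c is a former symbol of Argonaute genes. Annotated starts can differ from those used in these cells, and a match is a description of the letters.

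**Figure D1:**
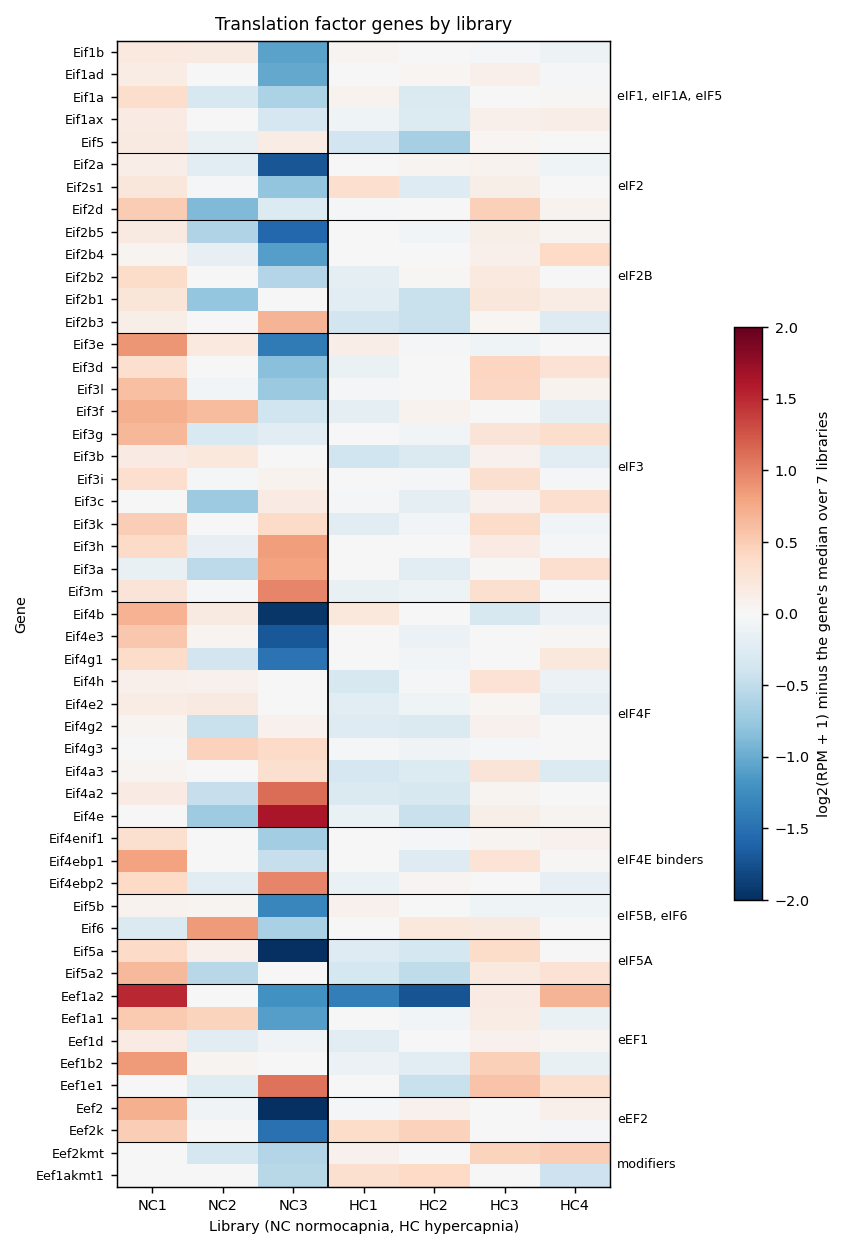
Level of 51 factor genes in each library as log2(RPM + 1) minus the gene's median over the 7 libraries, on a colour scale that ends at -2 and 2, with genes grouped by role. Eif2c5, at 0 throughout, and the Y-linked Eif2s3y are left out. NC3 holds most of the deep colours in both directions, whereas the 4 hypercapnia libraries stay pale for nearly all genes apart from Eef1a2. Hypercapnia supplies 4 of the 7 values behind each median, which in part keeps those columns pale.

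The comparison asked whether exposure to hypercapnia altered transcripts of these factors. It was made with limma on log2(RPM + 1) over all rows, and differences are hypercapnia minus normocapnia on that scale throughout. A gene was called when its unadjusted p was under 0.05 and its fold change above 1.5. Of all rows 2.57% were called (1.43% higher and 1.14% lower), and of the rows at a mean of 10 RPM or more 5.54%. Of the factor genes 0 were called in either direction by limma. After Benjamini-Hochberg adjustment over all rows 0.0% of them passed, and the lowest adjusted p among the factor genes was 0.915. At an unadjusted p under 0.05 there were 5 factor genes, or 9.43%, against 4.66% of all rows and 9.36% of the rows at 10 RPM or more, so that the share was near that of other well-expressed genes. edgeR put 0 factor genes under that p, and DESeq2 put 1 (Eif3f, -0.55, adjusted p = 0.515). DESeq2 gave no p for Eif4e and for Eif2c5, which was at 0.

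Of the 52 detected genes 30 had a log2 fold change above 0 and 22 below. The median over all 53 was 0.08, against 0.16 over the 12504 rows at 1 RPM or more. Median-of-ratios scaling moved these medians to -0.06 and 0.04, so the side of 0 on which most factor genes lay depended on the scaling. The differences ran from -0.67 (Eef1a2) to 0.68 (Eif2b5), and 5 genes exceeded 1.5-fold at any p. The groups did not overlap for 1 gene, Eef2kmt, that is 1.92% of the detected genes against 9.62% of the rows at 10 RPM or more.

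**Figure D2:**
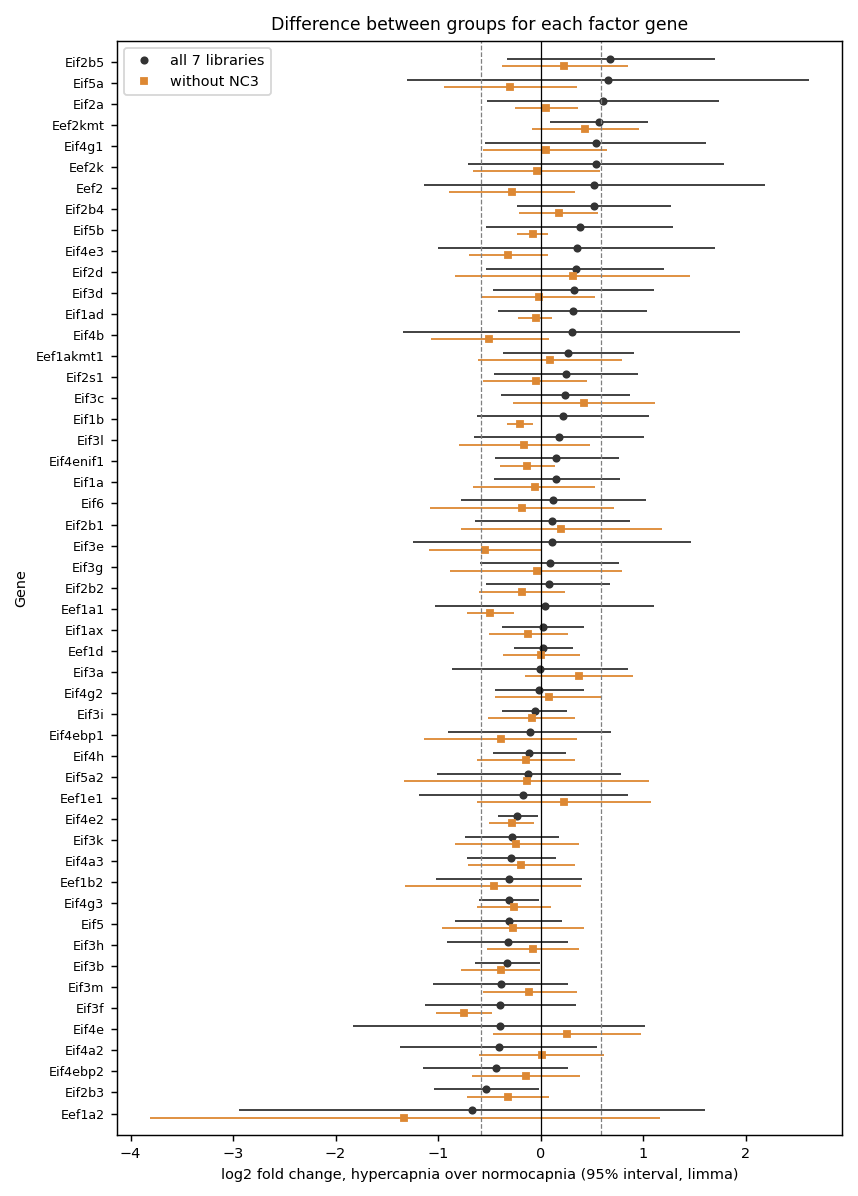
Log2 fold change of each of 51 factor genes, hypercapnia over normocapnia, with its 95% interval from limma, for all 7 libraries (dark circles) and without NC3 (orange squares). Dashed lines mark a fold change of 1.5. Leaving out NC3 narrowed the interval for genes such as Eef2, Eif5a and Eif4b and moved their estimates across 0.

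Among the factors that find the start codon (Eif1a, Eif1ax, Eif1ad, Eif1b and Eif5), 4 of 5 genes lay above 0 with a median of 0.15, and 0 of 5 without NC3. Eif5, which makes eIF2 hydrolyse its GTP once the start codon is met, had the highest RPM of them. It stood at 443, 349 and 432 RPM in normocapnia (NC1 to NC3 in order, here and below) and at 299, 244, 400 and 389 RPM in hypercapnia (HC1 to HC4). The groups overlapped, and the difference of -0.31 (SE 0.21) had an adjusted p = 0.915 by limma. Eif1a and Eif1ax are near-identical, so reads may be shared between them.

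The eIF2 group held Eif2s1, Eif2s3y, Eif2a and Eif2d, and Eif2s2 and Eif2s3x were not analysed here. Eif2s1 encodes the alpha subunit, whose phosphorylation slows initiation under stress. It was at 96.3, 80.6 and 46.9 RPM in normocapnia and at 104, 68.5, 89.0 and 81.8 RPM in hypercapnia, so the hypercapnia values lay inside the spread of the normocapnia libraries apart from HC1 (0.25, SE 0.28, adjusted p = 0.915). Eif2s3y, the copy of the gamma subunit on the Y chromosome, was at 0 in NC1, NC2, HC1 and HC2 and at 117, 60.3 and 56.5 RPM in NC3, HC3 and HC4, the libraries that lack Xist. Its fitted difference of 0.65 has an interval from -5.96 to 7.26 and such libraries made up 1 of the 3 of normocapnia and 2 of the 4 of hypercapnia. It lay below 0 with edgeR (-1.04), with DESeq2 (-1.13), without NC1 or without NC2 (-0.50 each), without HC3 (-0.35), and without HC4 (-0.32), and at 2.95 without NC3. With Xist as a covariate, a fit added after the values were seen, it was -0.62 and was called, with an adjusted p = 0.414.

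eIF2B recharges eIF2 with GTP and is the enzyme that phosphorylated eIF2 blocks. Of its 5 subunits 4 lay above 0, and 2 of 5 after median-of-ratios scaling. Eif2b2, with the highest RPM, was at 145, 112 and 74.3 RPM in normocapnia and 97.2, 114, 129 and 112 RPM in hypercapnia, with the hypercapnia libraries inside the normocapnia range (0.08, SE 0.24). Eif2b5, which encodes the catalytic subunit, stood at 15.2 RPM in NC3, 3.14-fold under the median of the other 6 libraries, and its difference of 0.68 (SE 0.40) shrank to 0.23 without NC3. Eif2b3 went the other way at -0.53 (SE 0.20, adjusted p = 0.915), with an unadjusted p under 0.05, and stayed short of 1.5-fold.

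The eIF3 complex, the scaffold between small subunit, eIF4G and messenger RNA, was covered by 12 genes, of which 5 lay above 0 and 7 below (median -0.04). The split was 3 and 9 after median-of-ratios scaling (-0.18) and with edgeR (-0.27), and 2 and 10 with DESeq2 (-0.33) and without NC3 (-0.10). It was 6 and 6 after scaling by quantiles (-0.02), without NC1 (-0.03) and without HC2 (0.02). Eif3a, with the highest RPM, was at 727, 563 and 1417 RPM in normocapnia and at 810, 691, 820 and 1028 RPM in hypercapnia. NC3 was 1.84-fold above the median of the other libraries for Eif3a, and a similar excess was seen for Eif3h and Eif3m. It was the opposite for Eif3e, with 98.0 RPM in NC3 against 247 to 483 RPM elsewhere. Subunits of the same complex thus departed in both directions in this library.

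For Eif3f the call turned on NC3. It stood at 403 and 379 RPM in NC1 and NC2, at 186 RPM in NC3, and at 213, 258, 245 and 214 RPM in hypercapnia. The 4 hypercapnia values therefore lay under NC1 and NC2 but over NC3. With all libraries the difference was -0.40 (SE 0.29, adjusted p = 0.915), and without NC3 it was -0.75 (SE 0.10, adjusted p = 0.255), the only factor gene called in that fit, in which 2.57% of all rows were called. Its 95% interval was then -1.02 to -0.48. Eif3f and the genes named in the next paragraph as not overlapping without NC3 were picked out after their values were seen.

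Eif3b, another eIF3 subunit, differed by -0.33 (SE 0.13, adjusted p = 0.915) at an unadjusted p under 0.05. Leaving out NC3, the groups did not overlap for 8 of the 52 detected genes, or 15.4%, against 19.4% of the rows at 10 RPM or more. Eef2kmt was higher in hypercapnia, and Eif3b, Eif3e, Eif3f, Eif4e2, Eif4e3, Eef1a1 and Eif1b were lower. The share lay under that of other genes at such levels. Of the 5 lower genes with a promoter entry, 2 had a pyrimidine run near the start, beside 26.2% of the factor genes and 21.9% of all genes with an entry. These 5 genes are too few for a comparison of shares.

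eIF4F and its helpers comprise the cap-binding protein, its helicase and the scaffold that joins them. Of the 10 genes 3 lay above 0 and 7 below (median -0.17, and -0.31 after median-of-ratios scaling). Eif4e was at 396 and 242 RPM in NC1 and NC2, 1229 RPM in NC3, and 360, 292, 431 and 413 RPM in hypercapnia. NC3 was 3.25-fold above the median of the others, the difference was -0.40 with an interval from -1.83 to 1.02, and without NC3 it was 0.26 (SE 0.27). On whole reads the difference was larger, at -1.07 with edgeR, without a call, and at -1.14 with DESeq2, which gave no p for Eif4e. The helicase gene Eif4a2 had the same shape, with 433, 279 and 838 RPM in normocapnia and 317, 308, 401 and 386 RPM in hypercapnia (-0.41, SE 0.38, and 0.01 without NC3, -0.81 with edgeR and -0.87 with DESeq2, neither a call). Its close relative Eif4a1 was not analysed here.

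The scaffold Eif4g1 went the other way in the same library. It was at 982, 589 and 275 RPM in normocapnia and at 769, 734, 763 and 886 RPM in hypercapnia, so NC3 lay 2.79-fold under the median of the others. The difference was 0.54 (SE 0.43, adjusted p = 0.915), 0.05 without NC3 and 0.96 (adjusted p = 0.403) without NC1. Eif4b, which stimulates the helicase, was at 176, 123 and 27.2 RPM against 125, 108, 86.3 and 99.9 RPM. Eif4g2, a relative of Eif4g1 that does not bind the cap protein, varied less. It stood at 1149, 811 and 1172 RPM in normocapnia and at 922, 902, 1173 and 1105 RPM in hypercapnia, with NC3 among the rest, and differed by -0.02 (SE 0.17) with an interval from -0.45 to 0.42.

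Eif4e2, a cap-binding relative that takes part in repression, and Eif4g3, a further scaffold, had an unadjusted p under 0.05. Eif4e2 was lower by a small amount (-0.23, SE 0.08), with 121, 124 and 109 RPM in normocapnia and 94.5, 103, 112 and 94.7 RPM in hypercapnia. HC3 lay just above NC3, so the groups overlapped. Eif4g3 differed by -0.31 (SE 0.12). Both stayed under 1.5-fold, and both had an adjusted p of 0.915.

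**Figure D3:**
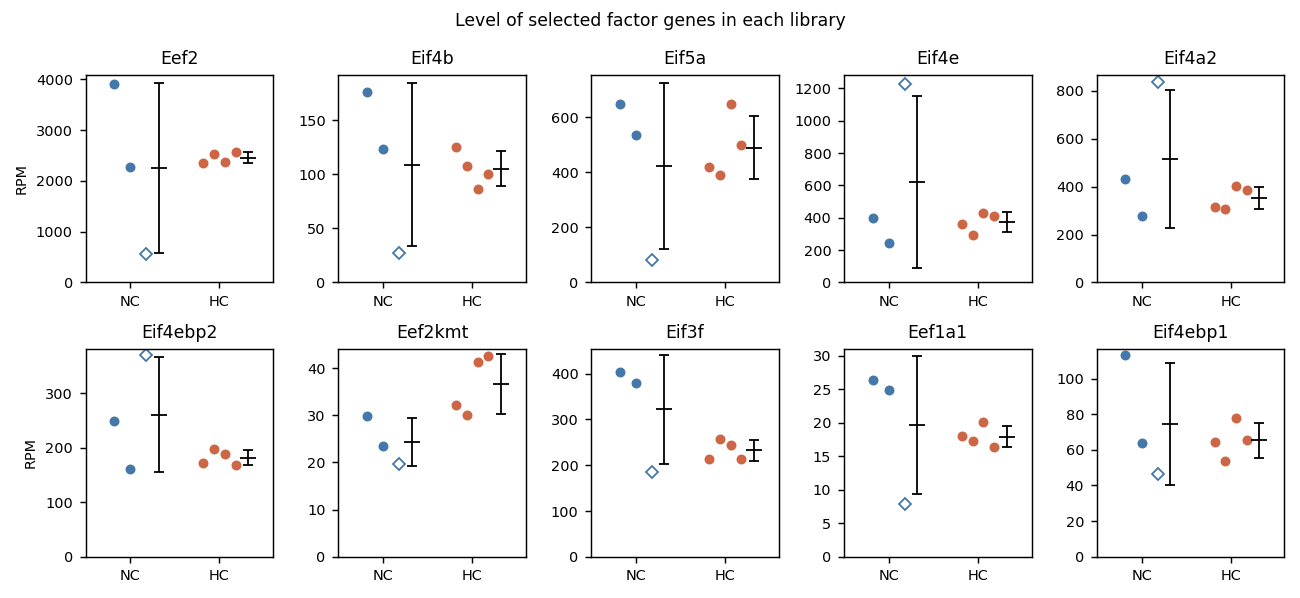
RPM of 10 factor genes in each library, with normocapnia (NC, blue) on the left and hypercapnia (HC, red) on the right of each panel, NC3 as an open diamond, and the mean with its SD as a black bar beside each group. NC3 lies far under the other libraries for Eef2, Eif4b and Eif5a and far above them for Eif4e, Eif4a2 and Eif4ebp2, and the groups are apart only for Eef2kmt.

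The inhibitors of eIF4E were Eif4ebp1, Eif4ebp2 and Eif4enif1, and Eif4ebp3 was not analysed here. Eif4ebp1 was at 113, 64.0 and 46.5 RPM in normocapnia and at 64.4, 53.6, 77.7 and 65.5 RPM in hypercapnia. All hypercapnia values lay inside the normocapnia range (-0.10, SE 0.32). Eif4ebp2 was at 250, 161 and 371 RPM against 173, 197, 189 and 168 RPM (-0.44, SE 0.28, adjusted p = 0.915, and -0.73 with edgeR and -0.78 with DESeq2, neither a call). Here too the hypercapnia values lay inside the normocapnia range. Without NC2 the difference was -0.74 (adjusted p = 0.461) and Eif4ebp2 would have been called, in a fit that called 5.04% of all rows.

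The balance of inhibitor and target was taken as the log2 ratio of Eif4ebp1 to Eif4e within each library, which does not depend on how a library is scaled. It was -1.80 and -1.90 in NC1 and NC2, -4.69 in NC3, and -2.47, -2.42, -2.46 and -2.64 in hypercapnia. The hypercapnia libraries agreed within 0.10 (SD, n = 4), while NC1 and NC2 lay above them and NC3 far below. The difference of 0.30 had p = 0.914 (exact permutation test, two-sided, over 35 divisions of the libraries, smallest possible p 0.0286, adjusted p = 0.914 over 3 ratios). Without NC3 it was -0.65, with p = 0.0667 by the same exact test, the smallest that 6 libraries allow. These are transcript ratios and do not measure phosphorylation or protein.

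**Figure D4:**
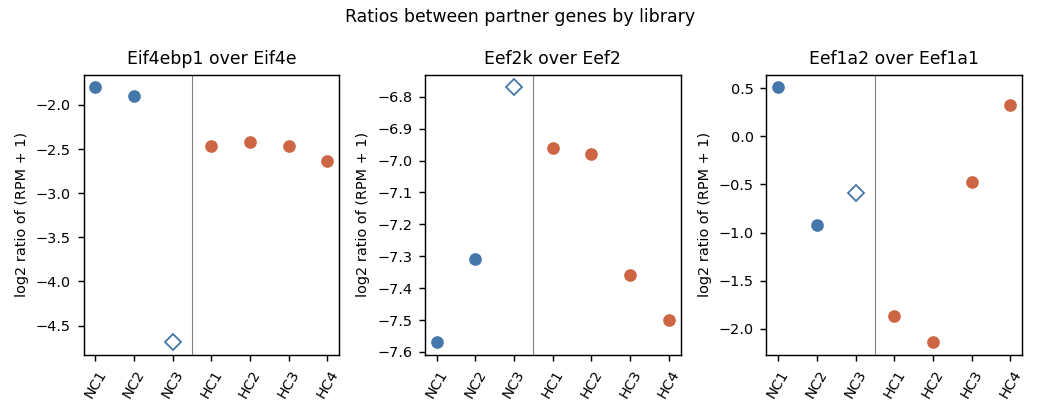
Log2 ratios of (RPM + 1) for 3 pairs of partner genes in each library, normocapnia in blue with NC3 as an open diamond and hypercapnia in red. For Eif4ebp1 over Eif4e the 4 hypercapnia libraries sit between -2.64 and -2.42, with NC1 and NC2 above and NC3 at -4.69. For Eef1a2 over Eef1a1, HC1 and HC2 lie below the other libraries.

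Eif5b and Eif6 act when the ribosomal subunits join, the first by promoting joining and the second by keeping free large subunits apart. Eif5b was at 134, 133 and 51.4 RPM in normocapnia and at 136, 128, 121 and 121 RPM in hypercapnia. Among the 6 libraries other than NC3 its highest value was 1.12-fold its lowest, and without NC3 its difference was -0.08 (SE 0.06), with an interval from -0.23 to 0.07. Eif5a, which relieves ribosomes stalled at difficult peptide bonds, was at 649, 535 and 80.0 RPM against 419, 390, 647 and 500 RPM. NC3 lay 6.47-fold under the median of the others, the widest fall among the factor genes, and the difference moved from 0.66 (SE 0.78) to -0.30 (SE 0.24) without it. Dhps and Dohh, the enzymes that make the hypusine residue eIF5A needs, were also lowest in NC3, at 14.5 RPM against 38.3 to 61.7 RPM and at 5.92 RPM against 40.6 to 50 RPM. NC3 was the lowest library for 49.5% of the rows at 10 RPM or more, so this is common among other genes. For Dhps the groups did not overlap, with 47.6, 38.3 and 14.5 RPM in normocapnia and 52.3, 50.9, 54.7 and 61.7 RPM in hypercapnia. Its difference was 0.85 (SE 0.41, adjusted p = 0.915), and 0.35 without NC3.

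Among the elongation factors of the eEF1 group, Eef1b2, the nucleotide exchange subunit, was at 712, 409 and 392 RPM in normocapnia and at 363, 335, 544 and 354 RPM in hypercapnia (-0.31, SE 0.28). The groups overlapped. Eef1a1 was at 26.3, 24.8 and 7.85 RPM against 18, 17.2, 20.1 and 16.4 RPM. The assay reads a single short stretch per gene, so such a level depends on the amplicon, and values are compared between libraries and not between genes. The Eef1a1 difference was 0.04 (SE 0.43), and -0.09 after median-of-ratios scaling. Without NC3 it was -0.49 (SE 0.09, adjusted p = 0.287) with groups apart, short of 1.5-fold. Many processed copies of Eef1a1 lie in the genome, so its reads are uncertain.

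Eef1a2, the isoform of mature muscle and nerve, had the widest spread among the factor genes other than the Y-linked Eif2s3y. It was at 37.8, 12.6 and 4.89 RPM in normocapnia and at 4.20, 3.12, 14.2 and 20.8 RPM in hypercapnia. HC1 and HC2 lay under HC3 and HC4, and the groups overlapped in part, with NC1 above every hypercapnia library and HC1 and HC2 below every normocapnia library (-0.67, SE 0.91, adjusted p = 0.917). Without NC1 the difference was 0.03, without NC3 it was -1.33 and without HC2 it was -0.28. The highest hypercapnia value was 6.67-fold the lowest, the largest such ratio among 51 factor genes (Eif2s3y and Eif2c5 left out). Myofiber markers, summed over 9 genes, stood at 5863, 1583 and 325 RPM in normocapnia and at 842, 465, 1681 and 3108 RPM in hypercapnia. For both Eef1a2 and these markers NC1 was highest, then HC4, HC3 and NC2. Below these the orders differed, with NC3 above HC1 and HC2 for Eef1a2 but lowest of all for the markers, and the part of myofiber RNA in the Eef1a2 values was not tested. The log2 ratio of Eef1a2 to Eef1a1 was 0.51, -0.92 and -0.59 in normocapnia and -1.87, -2.14, -0.47 and 0.33 in hypercapnia, a difference of -0.71 with p = 0.4 (exact permutation test, adjusted p = 0.914).

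Eef2 had the highest RPM of the factor genes, with 3914, 2277 and 558 RPM in normocapnia and 2353, 2521, 2382 and 2568 RPM in hypercapnia. The hypercapnia libraries agreed to within an SD of 105 RPM (n = 4), while those of normocapnia spread with an SD of 1678 RPM (n = 3). The difference was 0.52 (SE 0.67, adjusted p = 0.915, interval -1.14 to 2.19) and turned to -0.28 (SE 0.23) without NC3. Eef2k, the kinase that switches eEF2 off, was at 19.5, 13.4 and 4.13 RPM against 17.8, 19.0, 13.5 and 13.2 RPM (0.54, SE 0.50). It was lowest in NC3, as was Eef2. Their log2 ratio ran from -7.57 to -6.77 in normocapnia and from -7.50 to -6.96 in hypercapnia, with SDs of 0.41 (n = 3) and 0.27 (n = 4). The groups differed in this ratio by 0.02 with p = 0.914 (exact permutation test).

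Eef2kmt, the methyltransferase of a lysine in eEF2, came closest to a call with all libraries. It was at 29.8, 23.5 and 19.7 RPM in normocapnia (24.3 ± 5.13, SD, n = 3) and at 32.1, 30.1, 41.4 and 42.6 RPM in hypercapnia (36.6 ± 6.35, SD, n = 4). The 4 hypercapnia libraries all lay above the 3 of normocapnia, although HC2 exceeded NC1 by only a little. The difference of 0.57 (SE 0.19, adjusted p = 0.915), with an unadjusted p under 0.05, has an interval from 0.09 to 1.05 and stayed just under 1.5-fold on the log2 scale, while the ratio of the group means in RPM was 1.5. It was 0.43 (SE 0.20, adjusted p = 0.87) without NC3. The related Eef1akmt1 differed by 0.27 (SE 0.26).

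The hold that NC3 has on this gene family can be set beside the rest of the table. NC3 was below all other 6 libraries for 26 factor genes and above them for 10, together 69.2% of the detected genes, the same 69.2% as among the rows at 10 RPM or more. It was more than 2-fold from the median of the others for 20 genes, 15 lower and 5 higher, or 38.5% against 43.7% of those rows. The 5 higher genes were Eif4e, Eif4a2, Eif4ebp2, Eef1e1 and the Y-linked Eif2s3y. Its median deviation was -0.41 on the log2 scale for the factor genes and -0.50 for those rows. The factor genes thus departed in NC3 about as often as other genes of such levels.

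Among the other 6 libraries the factor genes were steady. The highest value was a median of 1.58-fold the lowest, against 1.89-fold for the rows at 10 RPM or more, and 41 of 51 genes (80.4%) kept within 2-fold against 55.6% of those rows. Within hypercapnia the median ratio of highest to lowest was 1.34, and 40 of 51 genes kept within 1.5-fold. The spread within hypercapnia was not taken over other rows. NC1 held the highest value for 29 of the 52 detected genes (55.8%), whereas it did so for 30.3% of the rows, and the summed level of the factor genes was 16430 RPM in NC1 and 11220 to 13700 RPM in the other 6. These ranks hold for RPM and depend on the scaling. The relative scale by median of ratios was 1.25 in NC1, 0.689 in NC3 and 0.959 to 1.13 elsewhere. Dividing the sums by it puts NC3 above NC1. NC1 also had the highest sums of satellite cell markers (3092 RPM), myofiber markers (5863 RPM) and markers of proliferating cells (900 RPM, against 863 RPM in HC3 and 86.7 RPM in NC3). The same held for fibro-adipogenic markers (3086 RPM, against 2782 RPM in HC4) and red blood cell markers (15.7 RPM). The part of these cells in the factor levels of NC1 was not tested. Without NC1 there were 4 factor genes called, all higher in hypercapnia (Eef2kmt, Eif4g1, Eif2b5 and Eif2d), in a fit that called 8.32% of all rows.

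Other genes that act with these factors were taken in 5 lists with 78 genes in all. Of these 3 were called, or 3.85%, which lay between the 2.57% of all rows and the 5.54% of the rows at 10 RPM or more. The median of the 78 genes was 0.26. In the list of eIF2 kinases and the integrated stress response, which slows initiation through eIF2 phosphorylation, 8 of 13 genes lay above 0 (6 of 13 with edgeR) and 0 were called by limma. Atf4, the transcription factor translated more when eIF2 is phosphorylated, was at 371, 574 and 291 RPM against 378, 389, 489 and 432 RPM, with the hypercapnia libraries inside the normocapnia range (0.08, SE 0.25). Its target Ddit3 was at 63.3 RPM in NC3 and at 15.2 to 22.2 RPM in the other 6 libraries.

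Of 16 cap, poly(A) and mTORC1-linked regulators, 1 was called higher and 1 lower. Pdcd4, an inhibitor that sequesters the eIF4A helicase and is degraded after phosphorylation by S6 kinase, was lower in hypercapnia. It stood at 101, 61.4 and 129 RPM in normocapnia and at 26.0, 30, 48.7 and 42.6 RPM in hypercapnia, with no overlap. The difference was -1.36 (SE 0.34, adjusted p = 0.827), it was -1.12 without NC3, and it was called under all 17 alternative fits (-1.67 to -1.12). Cyfip2, a partner of the translational repressor FMRP and of the actin-regulating WAVE complex, was higher, at 42.0, 18.1 and 22.4 RPM against 45.4, 56.2, 53.7 and 52.5 RPM (0.98, SE 0.29, adjusted p = 0.909). Pabpc1, the poly(A)-binding protein, and Gigyf2, a partner of Eif4e2, had an unadjusted p under 0.05 at -0.46 each, short of 1.5-fold. Gigyf2 was at 60.3, 58.2 and 86.3 RPM against 46.3, 43.9, 54.9 and 49.9 RPM, with no overlap, while the groups overlapped for Pabpc1. For Cyfip2, NC1 came close to HC1 without overlap, and the call was lost without NC3 (0.88, adjusted p = 0.767) and with the replicate number as a block (0.97). Larp1, which binds the pyrimidine motif described above, was at 1.79 RPM in NC3 and at 129 to 366 RPM in the other 6 libraries, so its difference of 1.76 (SE 1.82) rests on NC3.

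Of 22 cytosolic aminoacyl-tRNA synthetases and their scaffold proteins, 20 lay above 0, with a median of 0.52 against 0.16 over all rows at 1 RPM or more (0.39 against 0.04 after median-of-ratios scaling, and 0.24 against -0.07 without NC3, when 16 lay above 0), and 1 was called. The 6 markers of proliferating cells all lay above 0 as well, with a median of 1.57 (0.97 without NC3). The groups overlapped for each of these markers, and 0 had an unadjusted p under 0.05 by limma. Their sum was 900, 88.0 and 86.7 RPM in normocapnia and 418, 377, 863 and 690 RPM in hypercapnia, so NC1 was highest. The part of proliferating cells in the synthetase levels was not tested. Aars, which charges alanine tRNA, was at 240, 146 and 63.9 RPM in normocapnia and at 282, 276, 304 and 354 RPM in hypercapnia, with no overlap (1.20, SE 0.45, adjusted p = 0.915). It was called in 11 of 17 alternative fits, differed by 0.69 without NC3, and lost the call without NC2 (1.28), without any single hypercapnia library (1.12 to 1.24) and with the replicate number as a block (1.12). None of the 18 rescanning, release and recycling factors (10 above 0) and none of the 9 mitochondrial factors (6 above 0, and 3 after median-of-ratios scaling) was called by limma, and 1 gene of these lists, Mtif2, had an unadjusted p under 0.05 (-0.21, adjusted p = 0.814), with 11.4, 10.3 and 9.84 RPM against 9.33, 8.69, 8.75 and 8.94 RPM and no overlap. Without NC3, Mcts2 (-0.79, adjusted p = 0.653) and Pelo (-0.60, adjusted p = 0.651) of the rescanning, release and recycling list were called lower. In the other lists Pdcd4 and Aars stayed called. That fit called 2.57% of all rows. Apart from the genes given above as not overlapping, the groups did not overlap for Mcts1, Dph1, Mtrf1, Sars and Wars, each at an unadjusted p above 0.05. Of the rows at 10 RPM or more 9.62% did not overlap. The adjusted p exceeded 0.05 for every gene of the 5 lists.

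**Figure D5:**
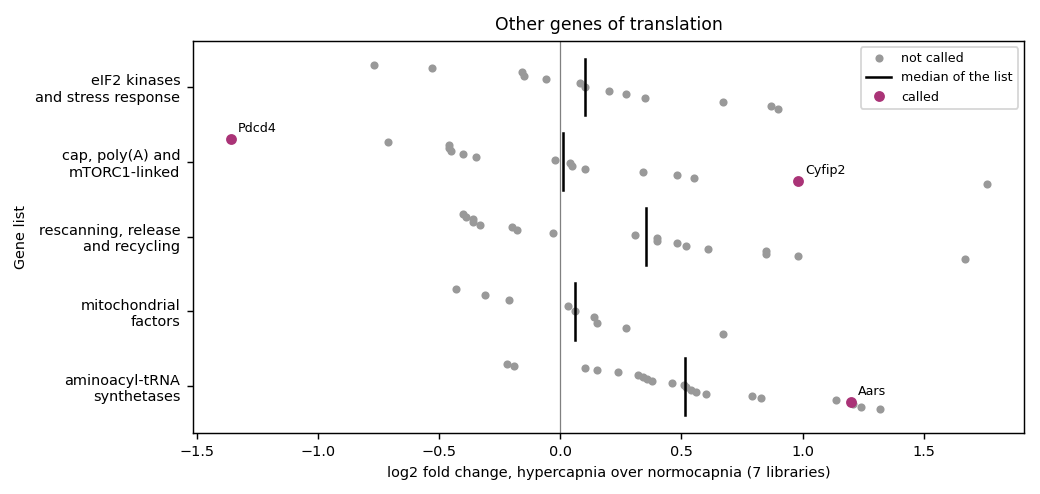
Log2 fold change, hypercapnia over normocapnia with all 7 libraries, of each gene in 5 lists of other translation genes, with the called genes Pdcd4 (-1.36), Cyfip2 (0.98) and Aars (1.20) in purple and the median of each list as a black line. Of the 5 list medians that of the synthetases (0.52) is furthest to the right.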

How the data were processed

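RNA from GFP-positive cells sorted by FACS from 7 mouse samples was made into AmpliSeq libraries, a PCR panel with a single amplicon per gene, on the Ion Chef, and the authors deposited a table of RPM values (counted reads brought to the same total in every library). Processing by the authors named the Transcriptome Analysis Console. Neither aligner nor build is named in the sources used here. Because 100% of values were whole multiples of 1 read within 0.05 reads, whole reads were recovered. Amplicon reads carry no molecular identifiers, so floors cover counting error only.

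limma 3.58.1 (R 4.3.3) was run on log2(RPM + 1), pseudocount 1 RPM, over 23930 rows without a filter, with the study's thresholds (p under 0.05, fold above 1.5) and Benjamini-Hochberg adjustment. Alternatives were pseudocounts of 0.1 and 5 RPM, leaving out rows with a mean under 1 RPM, scaling by median of ratios or by quantiles, edgeR 4.0.16 (quasi-likelihood, TMM) and DESeq2 1.42.0 on whole reads, each library left out, the replicate number as a block and, chosen after seeing the data, Xist as a covariate. The main limma fit, edgeR with its filter and DESeq2 were tested on simulated data, and the other alternatives were not. Ratios were tested by exact permutation, two-sided. The ratio of Eif4a2 to Eif4a1 was not analysed here, which left 3 ratios for adjustment.

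The genes and lists were chosen with earlier results of these data known. Values in every library are given for called genes, factor genes whose groups did not overlap at an unadjusted p under 0.05, the genes of the ratios, a fixed set of regulators and the gene with the highest mean RPM in each role (a naming rule only, since levels of different amplicons cannot be compared). Other genes named with values (Eif2b3, Eif2b5, Eif3b, Eif3e, Eif3f, Eif4b, Eif4e2, Eif4g3, Eef1akmt1, Atf4, Ddit3, Larp1, Pabpc1, Gigyf2, Dhps, Dohh, Mtif2, Mcts2, Pelo) were picked after their values were seen. Same-numbered libraries did not deviate together (correlations of deviations -0.349, 0.503 and -0.044), so the numbers were not taken as pairs. Promoter sequences are from RefSeq, and protein sequences were not used here.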

Additional observations from a re-analysis of the deposited data

Results flagged for a closer look

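Among 22 sets of 4 hypercapnia values tested for a sample far from the rest, 1 stood out. Eef1b2 was at 544 RPM in HC3 against 363, 335 and 354 RPM in HC1, HC2 and HC4, with a gap of 0.865 of the whole range, above Dixon's critical value for 4 samples. Chance marks about 1 in 20 such sets.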

How the results depend on the processing

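Most results rested on a normocapnia group of 3 libraries in which NC3 stood apart, so intervals are wide and a missing call does not show that a gene did not differ. No factor gene was called with limma after filtering or rescaling, or with edgeR or DESeq2 (DESeq2 gave no p for Eif4e). The number called higher was 1 at a pseudocount of 0.1 RPM (Eef2kmt, 0.59) and 0 to 4 when single libraries were left out, with 4 without NC1 and 1 each without HC1 or HC2 (Eef2kmt). The number called lower was 0 to 2 when single libraries were left out, 2 without NC2 (Eif4ebp2, and Eif2b3 at -0.66), 1 without NC3 (Eif3f) and 1 without HC3 (Eif2b3, -0.62), and 2 with Xist as a covariate (Eif2b3, -0.61, and Eif2s3y). Of all rows 3.52% were called at a pseudocount of 0.1 RPM, 1.61%, 1.57% and 2.39% without HC1, HC2 and HC3, and 5.5% with the covariate. The count at an unadjusted p under 0.05, 5 with all libraries, was 0 with the filter, 7 without NC1, 1 without HC1 or HC2, 0 without HC4 and 2 with the block.

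The median of the factor genes was 0.08, -0.11 and -0.10 with edgeR (with and without a filter), -0.14 with DESeq2 and -0.11 to 0.24 when single libraries were left out, against an SD between library medians of 0.151. Eif2s3y was -0.62 with the Xist covariate and also below 0 with edgeR, DESeq2, the block (-0.32) and without NC1, NC2, HC3 or HC4. Of 323 values of 19 genes over 17 alternatives, 40 had the other sign (11 of them without NC3) and 7 were called. The Eif4ebp1 to Eif4e ratio turned to -0.65 without NC3 and ran from -0.65 to 0.80 when single libraries were left out. The Eef2k to Eef2 ratio turned to -0.15 at a pseudocount of 5 RPM and ran from -0.16 to 0.24, with -0.16 without NC1, -0.03 without NC2 and -0.06 without HC1 or HC2. The Eef1a2 to Eef1a1 ratio stayed below 0, from -1.16 to -0.28. With the replicate block 0 factor genes were called in either direction and the median was 0.02. The causes were not tested.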
